A study of Gallus gallus with 17 samples.

Results

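A pair of lean chicken lines was set against each other here: 5 arrays of Fayoumi adipose tissue and 5 arrays of Leghorn adipose tissue, 10 of the 17 arrays of the series. The birds were untreated males of 3 weeks, and the labels give the lines as Fayoumi M 5.1 and Leghorn GHs 13, with broiler, a fat meat-type chicken, as the other line of the study (6 arrays). Both lean lines are highly inbred, so each group stands for 1 line and not for its breed at large. RNA was total RNA from whole adipose tissue, hybridised to Affymetrix chicken arrays of which 37693 chicken probe sets were used. The stated interest of the series was in pathways that accompany leanness, and this comparison asks what separates birds that are both lean.

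The arrays were selected on measured values, since Leghorn replicate 2 was left out because it lay with broiler. On a scale where 0 is the mean of broiler arrays 2 to 6 and 1 the mean of the other Leghorn arrays, the median position of Leghorn 2 was 0.0583 over 161 probe sets. The other 5 Leghorn arrays, each placed at probe sets chosen without it, lay between 0.879 and 0.999. A probe set at which broiler and Fayoumi are alike may therefore separate the lean lines only once Leghorn 2 is set aside. A call at such a probe set is not independent of that choice, though MPP1, described below, passed with Leghorn 2 as well. The array labelled broiler 1 in turn lay with Leghorn at some of these probe sets, such as those of BLB1 and DNAJC3 described below (2.58 at DNAJC3). At COL4A2 it read 10.58, a level within the range of broiler arrays 2 to 6. Broiler 1 is left out of the broiler ranges. Whether these 2 labels are exchanged was not tested, and values given "with Leghorn 2" take its label as it stands. The calls described below are given with and without Leghorn 2, and "rose" and "fell" are kept for probe sets that passed both with and without it.

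Adipose tissue stores triglyceride in adipocytes. In birds the liver makes most of the fatty acid, and lipoproteins carry it to fat, where lipoprotein lipase and the very low density lipoprotein receptor serve its uptake. Inbred chicken lines also differ in the major histocompatibility complex (MHC), whose B and Y regions hold class I-like, class II and BG genes, and an array probe reads both how much transcript is present and how well that line's sequence matches the probe. In bulk tissue, fewer cells of a type and less RNA per cell cannot be told apart.

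Values are log2 intensities normalised by the authors, running from 2.26 to 16.23, and 2.29 was taken as background because 95% of values of blank and reporter probe sets lay at or under it. Between 56.0% and 59.1% of the chicken probe sets were above it on each array. Adipocyte markers were well above background on every array, with a mean level of 9.93 on Leghorn 1 and 10.80 to 11.18 on the other 9 arrays. On Leghorn 1 the skeletal muscle markers, given below, were higher than the adipocyte markers. FABP4, the fatty acid binding protein of adipocytes, averaged 16.12 in Fayoumi. Arrays within Leghorn were uneven. The first principal component of the 10 arrays held 53.7% of the variance and set Leghorn 3 and 6, at -76.1 and -142.3, apart from the other 8 arrays, which lay between 13.3 and 40.8. The difference between the 3′ and 5′ ACTB control probe sets was 1.58 and 1.49 on those 2 arrays and 1.97 to 2.70 on the others. For GAPDH it was 0.0977 on Leghorn 1 and 0.925 to 1.46 on the other 9 arrays. The second component (19.9%) set Leghorn 1, at 97.7, apart from the rest, at -26.0 to 11.1. On Leghorn 1 the skeletal muscle markers averaged 12.68, against 6.84 on Fayoumi 2, 6.13 on Fayoumi 3 and 3.49 to 4.28 on the other 7 arrays. Leghorn 2, projected onto these 2 components, lay beside the Fayoumi arrays. On the third component (11.2%) it lay at -11.5, where Fayoumi ran from 7.97 to 19.4 and the other Leghorn arrays from -50.2 to 26.0. Broiler arrays were not projected.

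**Figure D1:**
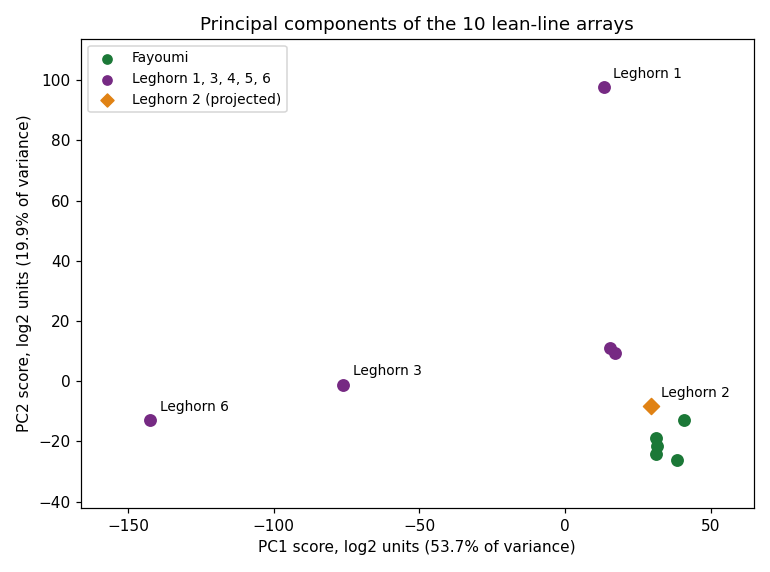
Scores of the 10 arrays on the first and second principal components of log2 intensity (arbitrary sign), with Leghorn 2 projected onto them. The 5 Fayoumi arrays sit together, Leghorn 3 and 6 lie far out on the first component and Leghorn 1 on the second.

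Of 37693 probe sets, 432 (1.15%) differed between the lines at an adjusted p under 0.05 in limma with Benjamini-Hochberg adjustment. Of these, 250 (0.663%) were higher in Fayoumi and 182 (0.483%) were lower. At an unadjusted p under 0.05 there were 3631. All 432 had Fayoumi and Leghorn values that did not overlap, as had 1763 (4.68%) of all probe sets. The differences were large: the median absolute log2 difference of the called probe sets was 1.49, and 332 of them exceeded 2-fold, 142 exceeded 4-fold and 26 exceeded 16-fold. The last probe set inside the threshold had an adjusted p of 0.0496 and the first outside 0.05003. With 1 probe set for each of 13008 genes, 114 genes (0.876%) were higher and 81 (0.623%) lower in Fayoumi. Leaving out 1 array moved the count by over 1.5 times at 6 arrays: 248, 244, 233, 237 and 287 were called without Fayoumi 1, 2, 3, 4 and 5, and 273 without Leghorn 3. Without Leghorn 1 the count was 600, with 247 higher and 353 lower. In all, 207 kept the call whichever of the 10 arrays was left out.

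With Leghorn 2 put back under its label, 191 probe sets (0.507%) were called, 188 of them among the 432. On a scale where 0 is the Fayoumi mean and 1 the mean of the other Leghorn arrays, Leghorn 2 lay over 0.75 at 105 of the 332 probe sets that exceeded 2-fold, and 96 of those 105 were called with it. It lay under 0.25, on the Fayoumi side, at 140, of which 1 was called with it. At 87 it lay between, and 51 of those were called. Leghorn 2 thus lay with its line at some of these probe sets, with Fayoumi at others and between at the rest. The cuts at 0.25 and 0.75 were set for description, and the positions show no break at them.

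**Figure D2:**
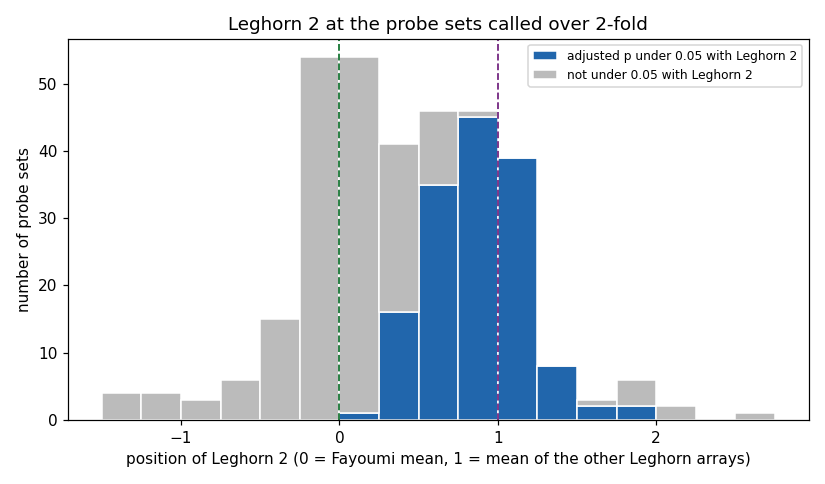
Number of probe sets (vertical axis) by the position of Leghorn 2 between the Fayoumi mean (0, green line) and the mean of the other Leghorn arrays (1, purple line), over the 332 probe sets called over 2-fold, with the most extreme positions drawn in the end bins. Blue marks those with an adjusted p under 0.05 when Leghorn 2 is included. Positions are most frequent near 0 and run on without a gap to past 1, and 1 of the blue ones lies under 0.25.

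Among probe sets with a gene name that passed both ways, the largest rises in Fayoumi were at SOST, DDTL, DIEXF and HHLA2. Some probe sets without a gene name had larger differences than HHLA2 and are not described. SOST, the secreted Wnt inhibitor sclerostin, read 10.93, 9.56, 9.44, 10.90 and 10.07 on the 5 Fayoumi arrays and 2.95, 3.14, 2.99, 2.31 and 2.79 on Leghorn 1, 3, 4, 5 and 6. Every Fayoumi array was more than 6 log2 units above every Leghorn array. The Fayoumi mean was 10.18 ± 0.71 (SD, n = 5) and the Leghorn mean 2.84 ± 0.32 (n = 5), a 162.6-fold difference in signal (limma adjusted p = 2.95e-05). Leghorn 2 read 5.15, between the lines, and broiler arrays 2 to 6 spread from 4.01 to 9.55. With Leghorn 2 the adjusted p was 0.00042. The other SOST probe set was near background, at 3.61 against 2.26.

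DDTL, a relative of the D-dopachrome tautomerase gene, read 8.62, 8.42, 8.30, 8.23 and 8.34 in Fayoumi and 2.54, 3.25, 3.03, 2.63 and 3.14 in Leghorn, and the lines did not overlap. Its rise was 44.1-fold (limma adjusted p = 1.20e-06), and Leghorn 2 at 3.14 and broiler at 2.65 to 3.72 both lay with Leghorn, so that Fayoumi stood apart from both other lines. A second DDTL probe set was level at 11.25 ± 0.07 against 11.29 ± 0.57. DIEXF, which encodes a nucleolar protein of ribosome assembly, read 8.36 ± 0.15 in Fayoumi and 3.36 ± 0.40 in Leghorn, a 32.1-fold rise (adjusted p = 7.87e-06), and Leghorn 2 at 7.2 lay nearer to Fayoumi (adjusted p with it 0.0343). Another DIEXF probe set fell, from 5.11 in Leghorn to 2.85 in Fayoumi (adjusted p = 0.00494), so the gene has no single direction here. HHLA2, a ligand of the B7 family that acts on T cells in humans, had levels of 6.50 ± 0.38 in Fayoumi and 3.14 ± 0.40 in Leghorn (adjusted p = 0.0004, and 0.00826 with Leghorn 2 at 4.83), where 3 Leghorn arrays were at values that other arrays shared exactly, and no fold is given. A second HHLA2 probe set read 9.70 ± 0.29 against 6.97 ± 1.05 (adjusted p = 0.039). It did not pass with Leghorn 2 at 9.37 (0.223), nor without any Fayoumi array or Leghorn 1, 3 or 5 (0.0616 to 0.123). Over all 21 alternatives, the adjusted p of these 4 probe sets (the second DIEXF and HHLA2 probe sets aside) lay between 1.28e-10 and 0.141.

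SHQ1, LGALS8 and NMRAL1 were each called higher at 2 probe sets in the 10 arrays. SHQ1, an assembly factor of the particles that modify ribosomal RNA, was called at 2 probe sets with means of 6.69 and 4.99 in Fayoumi and 3.84 and 2.42 in Leghorn (limma adjusted p = 0.00472 and 1.20e-06, and 0.00498 and 1.84e-07 with Leghorn 2 at 4.37 and 2.54). The first rose 7.22-fold, and broiler, at 3.71, lay with Leghorn. LGALS8, the galectin-8 gene, read 10.18 ± 0.21 in Fayoumi and 7.82 ± 0.43 in Leghorn, where the highest of the 5 arrays reached 8.35, below every Fayoumi array. It rose 5.15-fold (adjusted p = 0.00135, and 0.0418 with Leghorn 2 at 9.46), and a second probe set read 7.83 against 5.45 (adjusted p = 0.00287, and 0.0678 with Leghorn 2). NMRAL1, whose product senses the ratio of NADPH to NADP, rose 3.63- and 4.75-fold at 2 probe sets (adjusted p = 0.0155 and 0.0133, and 0.0126 and 0.0454 with Leghorn 2 at 7.60 and 6.97). The NMRAL1 calls were lost without Fayoumi 1, 3 or 4 at the first probe set (0.0507 to 0.0574) and without Fayoumi 3 at the second (0.0503). Without Leghorn 1, Fayoumi 2 and Fayoumi 3, the arrays richest in muscle markers, the first SHQ1 probe set, LGALS8 and both NMRAL1 probe sets missed the threshold (0.104, 0.0582, 0.0756 and 0.195). That fit also rests on fewer arrays. Of 69 called probe sets followed in the text, 28 were called in it and 68 without Leghorn 1 alone. The part of muscle in such losses was not tested. The adjusted p of the SHQ1, LGALS8 and NMRAL1 probe sets that passed both ways reached 0.475 over all 21 alternatives, with the replicate block, and 0.195 over the others.

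Among the probe sets that fell in Fayoumi and passed both ways, RCSD1, CANX, GSKIP and CMTM3 led. RCSD1, which encodes a protein that binds the actin capping protein CapZ, read 3.36, 2.88, 2.88, 2.88 and 2.28 in Fayoumi and 9.34, 9.71, 9.59, 9.73 and 9.78 in Leghorn (limma adjusted p = 1.20e-06, and 6.14e-06 with Leghorn 2). Of the 5 Fayoumi values 4 are shared or at background, so levels are given and no fold. Leghorn 2 read 8.41 and broiler 3.61 to 5.22, so at this probe set Leghorn 2 lay with its own line. A second RCSD1 probe set did not separate the lines, at 9.93 ± 0.16 against 10.04 ± 0.11.

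CANX, calnexin, a chaperone of glycoproteins in the endoplasmic reticulum, read 4.30, 4.01, 3.54, 2.87 and 5.16 in Fayoumi and 10.71, 10.52, 11.02, 11.01 and 9.99 in Leghorn. Leghorn 2 at 10.36 and broiler at 9.33 to 10.54 lay with Leghorn, and Fayoumi was the line apart, 102.1-fold lower in signal (limma adjusted p = 0.000185, and 7.54e-05 with Leghorn 2). The second CANX probe set pointed the other way without passing, at 11.50 in Fayoumi and 10.74 in Leghorn (adjusted p = 0.301). GSKIP, a binding partner of the kinase GSK3B, fell at both of its probe sets, by 46.1- and 17.4-fold (adjusted p = 0.00082 and 0.00288, and 0.000465 and 0.00214 with Leghorn 2). Its first probe set read 3.57 ± 0.54 in Fayoumi and 9.09 ± 0.87 in Leghorn, with Leghorn 2 at 9.95 and broiler at 7.68 to 9.60. CMTM3, a membrane protein of the MARVEL family, was above background on 1 of 5 Fayoumi arrays and read 7.43 ± 0.45 in Leghorn (adjusted p = 9.65e-06, and 4.67e-06 with Leghorn 2 at 6.94), while its other probe sets were level at 10.28 against 9.99 and 8.14 against 7.70. Both GSKIP calls were lost without the 3 muscle-rich arrays (Leghorn 1, Fayoumi 2 and Fayoumi 3, adjusted p = 0.0655 and 0.0888), but not without Leghorn 1 alone. Over all 21 alternatives the adjusted p of these 5 probe sets lay between 2.60e-08 and 0.166.

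TALDO1 and TRIL fell at 2 probe sets each, and ANK3 and DUS2 at 1 of the 2 at which they were called. TALDO1, transaldolase of the pentose phosphate pathway, read 11.28, 11.38, 11.36, 11.13 and 11.66 in Fayoumi and 12.42, 12.64, 12.26, 12.18 and 12.78 in Leghorn. No Fayoumi array reached the lowest Leghorn array, and Leghorn 2 at 12.25 and broiler at 12.08 to 12.62 lay with Leghorn. The fall was 2.1-fold there and 2.85-fold at a second probe set (limma adjusted p = 0.0087 and 0.0133, and 0.00868 and 0.0113 with Leghorn 2). TRIL, an accessory protein of Toll-like receptor signalling, read 6.75 ± 0.34 against 8.18 ± 0.32 at one probe set (2.71-fold, adjusted p = 0.0161) and was close to background in Fayoumi at the other (2.38 against 3.52). With Leghorn 2, at 7.99 and 3.09, the adjusted p of TRIL was 0.0139 and 0.0348. The first TRIL call was lost without Fayoumi 1, Fayoumi 3 or Leghorn 3 (0.0518 to 0.0553), and the second without any of the 5 Fayoumi arrays, Leghorn 3 or Leghorn 5 (0.064 to 0.0721). ANK3, an ankyrin that anchors membrane proteins, and DUS2, which makes dihydrouridine in transfer RNA, fell 5.84- and 2.81-fold (adjusted p = 0.0111 and 0.00646, and 0.0145 and 0.0327 with Leghorn 2 at 8.88 and 6.12). Their other called probe sets, at 6.13 against 7.33 for ANK3 and 6.61 against 8.42 for DUS2, did not pass with Leghorn 2 (0.0773 and 0.101). Of their further probe sets above background on at least 5 arrays, those included, 2 of 5 for ANK3 and 1 of 2 for DUS2 lay lower. Among the rest, ANK3 read 11.11 ± 0.15 against 9.65 ± 1.48 and DUS2 6.60 ± 0.20 against 6.26 ± 0.68, neither called. Without the muscle-rich arrays all 6 probe sets that passed both ways missed the threshold (adjusted p = 0.0655 to 0.235), and over the 21 alternatives they ranged from 0.000269 to 0.365.

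**Figure D3:**
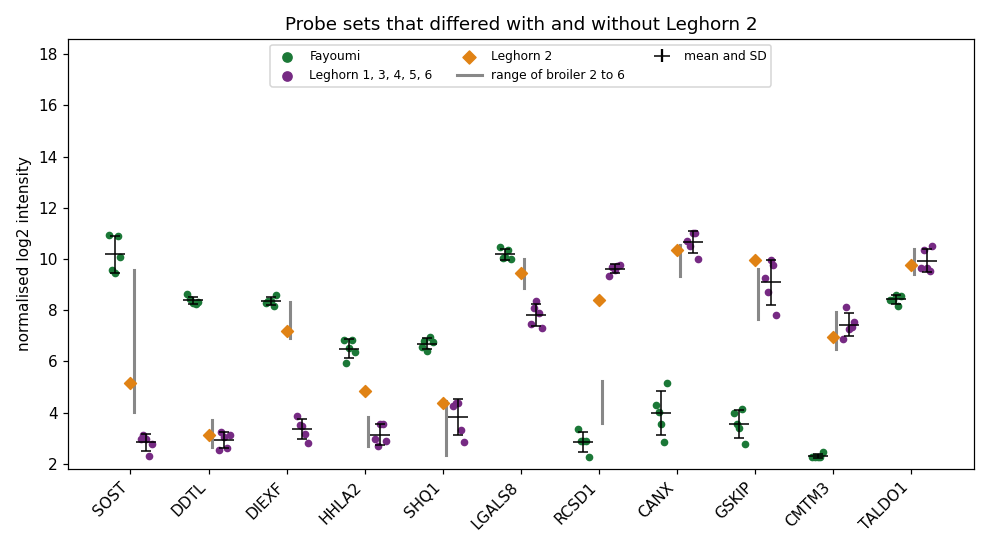
Normalised log2 intensity on each array for 1 probe set of 11 genes called with and without Leghorn 2, with line means and SD (bars), Leghorn 2 (diamond) and the range of broiler arrays 2 to 6 (grey line). The lines do not overlap at any of them, and at DDTL, CANX, GSKIP and TALDO1 the grey line and the diamond lie on the Leghorn side.

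Several of the largest differences were at probe sets where Leghorn 2 sat on the Fayoumi side. They are described by their levels, because they pass only in the 10 arrays chosen. ASPH, which hydroxylates aspartate in secreted and membrane proteins, read 12.89, 12.62, 12.72, 12.91 and 12.66 in Fayoumi and 2.46, 2.70, 4.35, 5.39 and 2.46 in Leghorn. Leghorn 2 read 13.27 and broiler arrays 2 to 6 read 10.37 to 13.00, so at this probe set the other 5 Leghorn arrays were the ones apart. A second ASPH probe set gave 13.48 against 4.41 with Leghorn 2 at 13.96. Other ASPH probe sets were not called, for example at 10.86 ± 0.11 against 10.76 ± 0.33 and 8.35 ± 0.38 against 7.12 ± 0.57. DNAJC3, a co-chaperone of the endoplasmic reticulum stress response, read 9.45 to 9.78 in Fayoumi, 2.61 to 3.04 in Leghorn and 9.42 on Leghorn 2, while another DNAJC3 probe set was level at 11.02 against 10.82. EPHX3, an epoxide hydrolase of lipid epoxides, was called at 3 probe sets, 2 of them reading 9.18 against 3.60 and 7.46 against 2.89, and Leghorn 2 read 10.56 and 9.19 there. FGFR3, a fibroblast growth factor receptor, read 8.51 against 6.02 and 6.97 against 4.65 at 2 probe sets, with Leghorn 2 at 8.15 and 6.58. C4orf48 (9.10 against 5.26) and CCDC127 (8.04 against 4.12) followed the same arrangement, and CCDC127 missed the threshold without any of the 5 Fayoumi arrays or Leghorn 3 (0.0633 to 0.0734). In limma the adjusted p of these 9 probe sets was 2.48e-08 to 0.0215 in the 10 arrays, 0.0748 to 0.41 with Leghorn 2, and 8.60e-10 to 0.41 over all alternatives.

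On the lower side Leghorn 2 also lay with Fayoumi at COL4A2, UMPS, MED27, LRRTM4, NANS and PLXNA2. COL4A2, a chain of basement membrane collagen IV, read 3.67, 2.99, 2.71, 2.71 and 3.76 in Fayoumi and 9.90, 10.70, 10.77, 10.74 and 10.86 in Leghorn, with Leghorn 2 at 3.40. Broiler arrays 2 to 6 ran from 2.71 to 10.73 at this probe set and so covered both lines. Other COL4A2 probe sets were level, for example 13.93 ± 0.22 against 13.92 ± 0.26. UMPS, which completes pyrimidine synthesis, read 2.37 ± 0.08 against 8.15 ± 0.55 with Leghorn 2 at 2.29, while a second probe set read 9.01 against 9.18. MED27, a subunit of the Mediator complex, read 3.85 against 8.43 and was level at another probe set (7.76 against 7.81). NANS, a sialic acid synthase, was lower at 2 probe sets (9.39 against 10.86 and 8.40 against 9.68), as was PLXNA2, a semaphorin receptor (8.59 against 9.91 and 9.25 against 10.38). LRRTM4, a synaptic adhesion protein, read 3.03 against 6.62. The weaker PLXNA2 difference was lost without any Fayoumi array or Leghorn 3, 4 or 5 (0.0599 to 0.0978). Their adjusted p in limma was 8.39e-06 to 0.0313 in the 10 arrays, 0.11 to 0.526 with Leghorn 2, and 5.97e-09 to 0.556 over all alternatives.

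**Figure D4:**
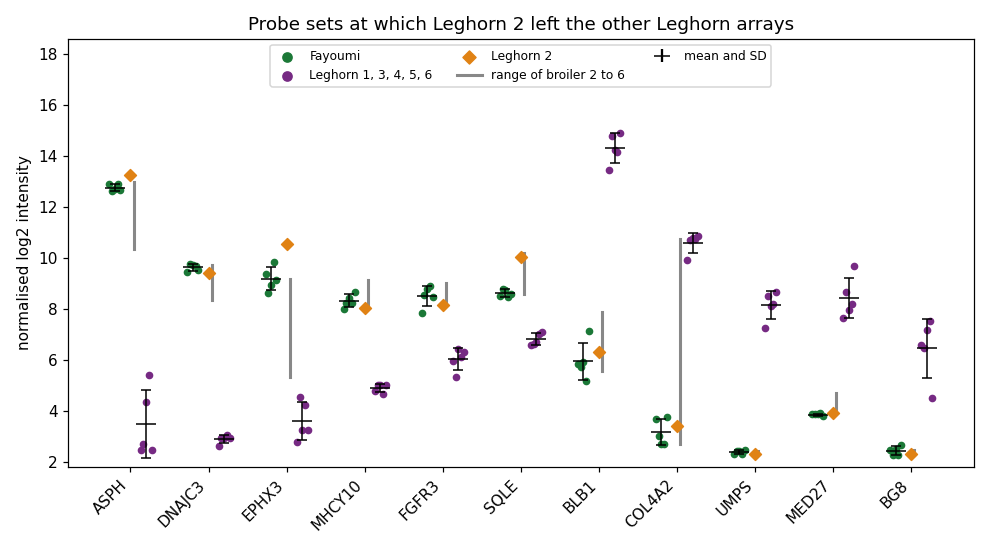
Normalised log2 intensity on each array for 1 probe set of 11 genes that were called only without Leghorn 2, with line means and SD (bars), Leghorn 2 (diamond) and the range of broiler arrays 2 to 6 (grey line). Leghorn 2 lies among, close to or beyond the Fayoumi values at each gene and away from the other Leghorn arrays.

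Probe sets of the same gene often disagreed. Of 20 called probe sets with 1 gene name and a difference over 16-fold, 18 belonged to a gene with another probe set above background on at least 5 arrays. At 9 of the 18 every such further probe set differed by less than 2-fold, and at 8 some further probe set was called the same way. Those 8 belong to ASPH, EPHX3, GSKIP and BG8, and a gene with several called probe sets is counted at each of them. Over all sizes, 217 of the 325 called probe sets with 1 gene name had a further probe set above background. Of these, 59 had one called the same way and 10 had one called the opposite way. At 128, all of the further ones differed by less than 2-fold. Counted by gene, 182 called genes had a further probe set above background. Among them, 29 had one called the same way and 5 had one called the opposite way. PRTFDC1, which resembles the purine salvage enzyme HPRT1, is an example in which opposite calls both passed with Leghorn 2. One probe set read 2.99 in Fayoumi and 6.18 in Leghorn (limma adjusted p = 0.000591) and another read 5.92 and 4.71 (adjusted p = 0.00176), with Leghorn 2 at 6.37 and 5.01. The cause of such disagreement was not tested.

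Genes of the MHC gave some of the largest contrasts, all of them with Leghorn 2 on the Fayoumi side. One BLB1 probe set, for a class II beta chain, read 5.82, 5.70, 5.90, 5.17 and 7.14 in Fayoumi and 13.45, 14.77, 14.25, 14.17 and 14.92 in Leghorn, a 330.2-fold difference in signal. Leghorn 2 at 6.31 and broiler arrays 2 to 6 at 5.55 to 7.89 lay with Fayoumi, and the array labelled broiler 1 lay with Leghorn at 14.10. The most strongly hybridised BLB1 probe set was level, at 14.90 ± 0.04 in Fayoumi and 14.47 ± 0.54 in Leghorn. These class II probe sets can match closely related BLB genes, so the gene behind the signal is uncertain. BG8, of the butyrophilin-like BG family, read 2.43 ± 0.17 in Fayoumi, 6.44 ± 1.17 in Leghorn and 2.32 on Leghorn 2. Other BG8 probe sets were not called, for example at 5.045 against 5.18 and 5.16 against 4.80. A second called BG8 probe set, at 2.52 against 3.63, was lost without any Fayoumi array, Leghorn 4 or Leghorn 5 (0.0588 to 0.0874). The class I-like MHC-Y genes went the other way: MHCY10 read 8.32 ± 0.25 against 4.89 ± 0.17 with Leghorn 2 at 8.03, and MHCY4, chosen after its values were seen, read 7.16 ± 0.33 against 3.90 ± 0.75 with Leghorn 2 at 7.47. The adjusted p of 6 probe sets of these 4 genes was 9.41e-06 to 0.0277 in limma for the 10 arrays, 0.0857 to 0.376 with Leghorn 2, and 8.41e-07 to 0.465 over all alternatives. Of 27 measured genes for antigen presentation, none was called at its best-expressed probe set (background 0.876% higher and 0.623% lower), CD74 and B2M being level and abundant at 15.42 and 14.70 in Fayoumi.

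In the 10 arrays some genes on the sterol and fatty acid synthesis lists were called, all of them higher in Fayoumi, and none passed with Leghorn 2. SCD5, a desaturase gene outside these lists, was called lower. It lost that call without any Fayoumi array or Leghorn 3, 4 or 5 (limma adjusted p = 0.08715 to 0.1159). Of 20 measured genes for cholesterol synthesis and uptake, 3 were called higher and none lower (DHCR7, MSMO1 and SQLE), where 0.876% of all genes were called higher and 0.623% lower. In the list 17 lay above 0 and 2 below, and the median log2 difference was 0.54 where that of all genes was 0.0. The figure for all genes includes genes at the lowest value of the table, and their share above 0 is not given here. SQLE, squalene epoxidase, read 8.52, 8.80, 8.76, 8.46 and 8.58 in Fayoumi and 6.58, 6.64, 6.69, 6.99 and 7.11 in Leghorn. Leghorn 2 at 10.03 exceeded all 10 of these arrays, and broiler arrays 2 to 6 read 8.60 to 10.18. A second SQLE probe set repeated this, at 7.03 against 5.19 with Leghorn 2 at 8.26. MSMO1, a sterol demethylation enzyme, read 12.64 ± 0.11 against 11.12 ± 0.41 with Leghorn 2 at 13.56, and DHCR7, the last enzyme of cholesterol synthesis, 10.48 ± 0.14 against 8.98 ± 0.53 with Leghorn 2 at 11.07. None of the list was called with Leghorn 2, and its median was then 0.26.

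Of 18 measured genes for fatty acid synthesis and desaturation, 3 were called higher (ACLY, FADS1 and FADS2) and none lower, against the same background of 0.876% and 0.623%. The median was 0.40, and 0.29 with Leghorn 2. ACLY, which makes cytosolic acetyl-CoA from citrate, read 10.44 ± 0.13 against 8.40 ± 0.68 (4.13-fold, Leghorn 2 at 10.04). The delta-6 desaturase gene FADS2 read 11.57, 11.37, 11.58, 11.62 and 11.22 in Fayoumi and 9.65 ± 0.49 in Leghorn, whose highest array, at 10.11, lay below every Fayoumi array, and Leghorn 2 read 11.65. FADS1, the delta-5 desaturase, read 6.04 ± 0.18 against 4.64 ± 0.35 with Leghorn 2 at 5.90. The core genes of the pathway did not pass: FASN, fatty acid synthase, averaged 12.77 in Fayoumi and differed by 0.52 on the log2 scale, SCD by 0.82 and ACACA by -0.29. Without Leghorn 1 the median of the list was 0.15. For the 7 probe sets of these 6 sterol and fatty acid genes, the limma adjusted p was 0.00024 to 0.0271 in the 10 arrays, 0.14 to 0.682 with Leghorn 2, and 4.02e-05 to 0.725 over all alternatives. ACLY lost its call without any of the 5 Fayoumi arrays or Leghorn 4 (0.0533 to 0.066), and DHCR7 without any Fayoumi array, Leghorn 3 or Leghorn 6 (0.0526 to 0.0901).

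Among the lipid lists, that of lipid uptake held calls that passed with Leghorn 2. Of 25 measured genes for fatty acid uptake and triglyceride synthesis 2 were called, both higher in Fayoumi (0.876% of all genes), and the median was 0.12. VLDLR, the receptor for very low density lipoprotein, read 11.87, 11.96, 12.15, 12.20 and 12.07 in Fayoumi and 10.67, 10.39, 10.92, 10.62 and 10.36 in Leghorn. It rose 2.75-fold (limma adjusted p = 0.000714, and 0.00826 with Leghorn 2 at 11.29), every Fayoumi array exceeding every Leghorn array, Leghorn 2 included. Broiler arrays 2 to 6 read 10.87 to 11.50, also under Fayoumi. Without the muscle-rich arrays its adjusted p was 0.054, that of ACSL6 was 0.156, and over the 21 alternatives that of VLDLR was 6.26e-05 to 0.168. ACSL6, a long-chain acyl-CoA synthetase, read 6.82, 6.17, 7.26, 7.30 and 7.38 in Fayoumi and 3.05, 2.65, 4.43, 4.60 and 4.4 in Leghorn (8.94-fold, adjusted p = 0.016, and 0.0384 with Leghorn 2 at 5.28). Its call was lost without Fayoumi 1, 3, 4 or 5 (0.0507 to 0.0588), and its adjusted p ran from 0.000666 to 0.24 over the alternatives. LPL and CD36, which release and take up fatty acids, averaged 13.64 and 14.87 in Fayoumi, with log2 differences of 0.45 and 0.53 that did not pass.

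Genes for breaking down and burning fat showed few calls, where 0.876% of all genes were called higher and 0.623% lower. Of 10 measured genes for lipolysis and lipid droplets, PLIN2, which coats lipid droplets, was called lower, at 9.13 ± 0.27 against 11.05 ± 0.61. Its second probe set read 9.01 against 9.45, Leghorn 2 read 9.66, and the adjusted p was 0.0211 in limma, 0.117 with Leghorn 2 and 0.0662 to 0.0745 without Fayoumi 2, 3, 4 or 5 (0.00175 to 0.465 over all alternatives). PNPLA2, the adipose triglyceride lipase, averaged 13.77 in Fayoumi and missed the threshold at a difference of -0.44 (log2). None of 18 genes for mitochondrial fatty acid oxidation (median -0.23) and none of 17 for peroxisomal oxidation (median 0.14) was called, and CPT1A, the gate of mitochondrial oxidation, had a log2 difference of -1.13 (adjusted p = 0.153). CRAT, carnitine acetyltransferase, was called higher at a weaker probe set, at 4.38 against 2.89, and lost that call with Leghorn 2 at 3.79 (adjusted p 0.0215 and 0.08, and 0.00151 to 0.313 over the alternatives), as well as without Fayoumi 1 to 4 or Leghorn 4 or 5 (0.0518 to 0.0745). TALDO1 was the 1 called gene of 6 in the pentose phosphate pathway.

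**Figure D5:**
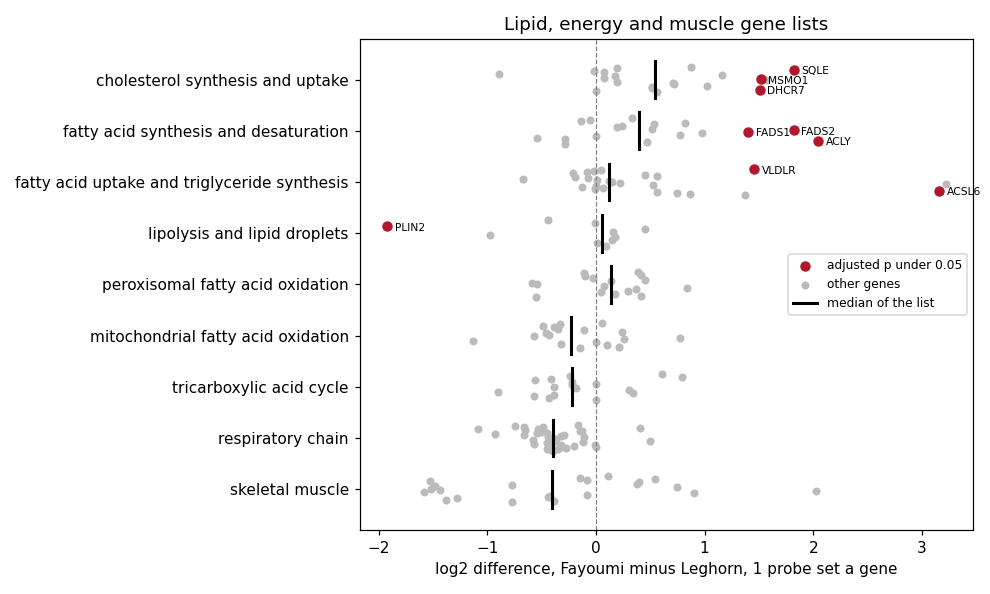
Log2 difference (Fayoumi minus Leghorn) of each measured gene in 9 lists at its best-expressed probe set, red where the adjusted p was under 0.05 in the 10 arrays, with the list median as a black bar. The red genes of both synthesis lists lie between 1.40 and 2.04, while 37 of 39 respiratory chain genes lie below 0 without passing.

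Respiratory chain genes leaned the other way as a list. Of 39 measured under the names used (56 listed), 37 lay below 0 and 2 above, with a median of -0.39, and none was called at its best-expressed probe set. The median stayed below 0 under each alternative, between -0.48 and -0.13, and was -0.39 without Leghorn 3 and 6. The mean level of the list was 11.68, 11.10 and 11.35 on Leghorn 1, 3 and 6. Leghorn 4, at 10.90, lay within the Fayoumi range of 10.72 to 10.93, and Leghorn 5, at 10.95, just above it. The share of all genes below 0 is not given here, so the lean of the list has no background beside it. NDUFB4, a subunit of complex I, was called at a weaker probe set, with 5.84, 6.36, 6.74, 6.28 and 5.71 in Fayoumi and 9.39, 8.82, 8.70, 8.77 and 9.17 in Leghorn, 6.90-fold lower (limma adjusted p = 0.000763, and 0.000374 with Leghorn 2 at 8.91). Broiler lay with Leghorn at 8.08 to 9.36, and its adjusted p over the alternatives was 3.94e-05 to 0.229. At its best-expressed probe set NDUFB4 had a log2 difference of -0.44 (adjusted p = 0.524). ATP5O, listed only under its newer name ATP5PO and so not counted, was called lower at 1 of 5 probe sets. It lost that call whichever of the 10 arrays was left out (0.0546 to 0.133). Skeletal muscle is rich in respiratory chain transcripts, and its markers were highest on Leghorn 1; without that array the median of the respiratory list was -0.28, and with Leghorn 2 it was -0.36. The part of muscle in this list was not tested. The muscle list itself had a median of -0.40, which became 1.40 without Leghorn 1. No gene of the tricarboxylic acid cycle (17 measured, median -0.22) or of glycolysis (21, -0.15) was called, against 0.876% higher and 0.623% lower over all genes. Among 19 genes for catabolism of branched-chain amino acids and ketones, ALDH6A1 was called at a weaker probe set (2.93 ± 0.56 against 5.37 ± 0.39, adjusted p = 0.00797, and 0.00683 with Leghorn 2 at 5.03, within 0.00041 to 0.448 over the alternatives). Its best-expressed probe set was not called and did not lie lower in Fayoumi. Beside NDUFB4, CRAT and ALDH6A1, the genes of other lists called at a weaker probe set were likewise chosen after their values were seen.

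Signalling lists held single calls, where 0.876% of all genes were called higher and 0.623% lower. In the Wnt pathway (47 measured genes, median -0.07) SOST was called higher and GSKIP lower. At weaker probe sets TCF7L2, a nuclear effector of Wnt signals, was called lower, at 3.97 ± 0.33 against 5.35 ± 0.41, and FZD6, a Wnt receptor, higher, at 8.24 ± 0.30 against 6.47 ± 0.60. TCF7L2 passed with Leghorn 2 at 5.60 (limma adjusted p = 0.0316 and 0.0245, within 0.00526 to 0.377 over the alternatives) but not without any of Fayoumi 1 to 4 or Leghorn 4 to 6 (0.0623 to 0.0954). FZD6 (adjusted p = 0.0313) did not pass with Leghorn 2 (0.121), nor without any Fayoumi array or Leghorn 3, 4 or 5 (0.0512 to 0.0993), within 0.00403 to 0.305 over the alternatives. Leghorn 2 read 4.37 there, in the broiler range of 3.70 to 4.37 and below both lean lines. In insulin and growth factor signalling (30 measured, median 0.01) PIK3CB, a catalytic subunit of phosphoinositide 3-kinase, was called higher (6.43 ± 0.40 against 4.84 ± 0.48, Leghorn 2 at 5.92), with an adjusted p of 0.0372. It was lost with Leghorn 2 (0.134) and without Fayoumi 2 to 5 or Leghorn 1, 3, 4 or 5 (0.0642 to 0.118), within 0.00928 to 0.423 over the alternatives. IGFBP2, a carrier of insulin-like growth factors, lay 2.92 log2 units higher in Fayoumi and missed the threshold (adjusted p = 0.0956, and 0.0917 with Leghorn 2). None of 23 genes of adipocyte differentiation and adipokines was called, PPARG differing by 1.24 (adjusted p = 0.232) and ADIPOQ, adiponectin, by -1.0 (0.237).

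Lists on protein and nucleotide handling also held 1 or 2 calls each, where 0.876% of all genes were called higher and 0.623% lower. Of 51 genes for ribosome and transfer RNA maturation, SHQ1 was called higher and DUS2 lower, and TRMT6, part of the enzyme that methylates adenosine in transfer RNA, was called at a weaker probe set. TRMT6 read 5.04, 4.78, 5.2, 4.43 and 6.30 in Fayoumi and was at the lowest value of the table, 2.26, on Leghorn 1 to 6 and on broiler arrays 2 to 6, which makes its rise at least 7.25-fold (limma adjusted p = 0.00404, and 0.00234 with Leghorn 2, within 7.90e-06 to 0.256 over the alternatives and 0.107 without the muscle-rich arrays). Of 32 genes for endoplasmic reticulum chaperones and stress, EIF2AK3, the kinase PERK, was called lower (4.36 ± 0.33 against 5.75 ± 0.47, adjusted p = 0.0435, and 0.0326 with Leghorn 2, within 0.00387 to 0.451 over the alternatives), a call lost on leaving out any single array except Leghorn 6 (0.0569 to 0.127). CANX was called lower and DNAJC3 higher at weaker probe sets, as described. Of 30 genes of nucleotide synthesis, GART, which serves several steps of purine synthesis, fell from 8.32 ± 0.30 to 7.18 ± 0.14 (2.21-fold, adjusted p = 0.00876, and 0.03 with Leghorn 2 at 7.76, within 0.000354 to 0.527 over the alternatives), and PRTFDC1 was called lower at its best-expressed probe set. None of 55 cytosolic ribosomal protein genes, 39 of glutathione and oxidative defence, 36 of extracellular matrix, 32 of the cell cycle or 29 of the tumour necrosis factor receptor family was called at the best-expressed probe set. At weaker ones RPL21 and RPL27A were called higher, DDTL higher and COL4A2 lower, and RPL27A lost its call without any Fayoumi array or Leghorn 3, 4 or 5 (0.055 to 0.109).

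Among immune and cell type markers 3 genes were called, GVINP1, MARCO and JCHAIN. Over all genes 0.876% were called higher and 0.623% lower. Of 24 interferon-stimulated genes GVINP1, a large interferon-inducible GTPase, was called, with 6.92, 7.15, 7.14, 7.18 and 6.64 in Fayoumi and 3.96, 2.78, 5.04, 4.73 and 4.60 in Leghorn (6.90-fold, limma adjusted p = 0.0172, and 0.03 with Leghorn 2 at 5.23, within 0.0013 to 0.419 over the alternatives and 0.299 without the muscle-rich arrays). The call was lost without Fayoumi 1, 2, 3 or 4 (0.0547 to 0.0629). MARCO, a scavenger receptor of macrophages, was the 1 called gene of 13 macrophage markers, at 3.05 ± 0.11 against 6.03 ± 0.90, with Leghorn 2 at 3.41 on the Fayoumi side (adjusted p = 0.0111, and 0.151 with Leghorn 2, within 7.90e-05 to 0.369 over the alternatives). The macrophage list as a whole had a mean level of 7.97 to 8.43 in Fayoumi and 7.70 to 9.06 in Leghorn. JCHAIN, the joining chain of secreted antibodies, was the 1 called gene of 8 B lymphocyte markers (6.48 ± 0.18 against 8.33 ± 0.70, Leghorn 2 at 7.35). Its adjusted p was 0.0355, and 0.0844 with Leghorn 2, within 0.0121 to 0.515 over the alternatives, and the call was lost without any Fayoumi array or Leghorn 3, 5 or 6 (0.0513 to 0.108). In the same list the defining B cell genes PAX5 and POU2AF1 were not above background on any array. No marker of adipocytes, T lymphocytes, erythrocytes, skeletal or smooth muscle, endothelium, mesenchymal progenitors or epithelium was called. The list of epithelial, mesothelial and liver markers averaged 6.26, 6.40 and 7.16 on Leghorn 1, 3 and 6 and 4.37 to 4.87 on the other 7 arrays, and its median difference was -0.68, or -0.13 without Leghorn 3 and 6. The part of these cell types in the differences above was not tested.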

How the data were processed

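Adipose RNA of 17 chicken samples was hybridised to Affymetrix chicken arrays. The authors deposited 1 value table of normalised log2 intensities, and the submitters' processing notes name R 2.13.2, RMA and GCRMA without saying which step each made. The lowest value, 2.26, held 36.1% of the chicken values, and many low values were shared exactly between arrays, which compresses differences and understates their spread. No detection calls were used, and the number of arrays limits precision. The members and gene lists were chosen with earlier results of these data known.

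From these values, 37693 chicken probe sets (842 others left out) were fitted with limma 3.58.1 in R 4.3.3 (lmFit, eBayes, default settings, two-sided) over 5 Fayoumi and 5 Leghorn arrays, with Benjamini-Hochberg adjustment over all of them, a threshold of 0.05, and no block. The procedure was tested on simulated data. GEO's platform annotation gave 1 gene symbol to 27166 probe sets, several to 177 and none to 10350; 26851 were matched to RefSeq genes (GRCg7b) by gene number to update names. A gene's best-expressed probe set is the one with the highest mean over the 17 arrays. A fold is 2 to the power of the log2 difference. It is left out where at least 3 of the 5 arrays of the lower line are at background or at a value shared within 0.001, and given as at least that size where the lower line is not above background on any array.

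Genes named come from probe sets with exactly 1 symbol that does not start with LOC. They are, in each direction, the 10 with the largest difference that passed without overlap (low-signal probe sets, whose higher line averaged under the overall median, aside), and the 8 with the strongest second probe set called the same way. From each functional list the 2 genes, and from each marker list the 1 gene, with the smallest adjusted p are also taken. Of the 98 probe sets so named, the text describes those the results turn on and counts the others. Other genes were chosen after their values were seen. Deviations of same-numbered arrays of the 2 lines had a Pearson r of -0.08, -0.03, 0.25 and 0.00 for numbers 1, 3, 4 and 5. These lay within the range of differently numbered arrays, -0.188 to 0.285, so numbers were not taken as pairs. Replicates are labelled biological, and nothing more is given on birds or depot. In all, 21 alternatives were run.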

Additional observations from a re-analysis of the deposited data

Results flagged for a closer look

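Among 196 groups of 5 arrays checked at the genes named by rule, 14 held 1 array far from the other 4. Independent, normally spread values would give about 1 in 20. That rate does not hold where values are tied or several groups share 1 array, so the count is descriptive. Of the 14, 8 were on Leghorn 1, the array with the highest skeletal muscle markers. On it DLD (11.18), SOD2 (13.38) and NEB (5.60) lay above the other Leghorn arrays, which read 10.36 to 10.56, 12.83 to 12.93 and 3.69 to 4.15. DLD is a subunit of mitochondrial dehydrogenases, SOD2 the mitochondrial superoxide dismutase and NEB the muscle protein nebulin. COL4A2 (9.90), LGMN (11.21), TAL1 (3.47) and DNAJC3 (2.61) lay below the others there, which read 10.70 to 10.86, 11.99 to 12.25, 4.62 to 4.83 and 2.93 to 3.04, and SHQ1 (2.49 against 2.39 to 2.41) lay above at its weaker probe set.

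The other 6 were at low values except GSTM2, and mostly where the remaining arrays shared 1 value. In Fayoumi these were CMTM3 on array 5 (2.45, the others at 2.26), MARCO on array 4 (3.25, the others at 3.00), PRTFDC1 on array 4 (3.76, the others 2.60 to 2.86), GSTM2 on array 1 (5.14, the others at 5.29) and TRIL on array 1 (2.38, within rounding of the others). In Leghorn it was TTK on array 6 (2.26, the others 3.01 to 3.29). The part of muscle content in the Leghorn 1 values was not tested.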

How the results depend on the processing

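The count of 432 called probe sets (250 higher, 182 lower in Fayoumi) moved with several choices. It was 191 (109 and 82) with Leghorn 2 as labelled, 236 (134 and 102) in 1 fit of all 17 arrays as labelled, 698 (409 and 289) without Leghorn 3 and 6, 144 (72 and 72) without Leghorn 1, Fayoumi 2 and Fayoumi 3, 768 (432 and 336) among 20804 probe sets filtered on low values, 55 (31 and 24) with trend and robust variance, and 1853 (860 and 993) with array weights. Equal array medians, which shift the median of all probe sets by -0.08, gave 645 in all with 305 lower. Leaving out 1 array at a time gave 233 to 600 calls, 134 to 271 higher and 98 to 353 lower. With the replicate number as a replicate block there were 3 calls, 3 higher and 0 lower, and the labels do not say what the numbers stand for. The share of calls that were higher, 57.9%, was 41.2% without Leghorn 1, 46.4% with array weights and 50.0% without Leghorn 1, Fayoumi 2 and Fayoumi 3. Fewer arrays or added model terms leave less data to estimate the spread, which by itself tends to lower the count. The count nevertheless rose to 600 without Leghorn 1 and to 698 without Leghorn 3 and 6. The cause of these moves was not tested.

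For the 98 probe sets named by rule, 60 of them called, 1717 of 2058 values under the 21 alternatives kept direction and side of the threshold, 299 no longer passed, 42 newly passed, and 0 reversed. Of the 60, 26 were still called with Leghorn 2, 59 after quantile normalisation, 60 with equal medians, 25 with trend and robust variance and 2 with the block. Of 770 list medians, 754 stayed within the spread between arrays. Signal near the lowest value limits what can be seen at weakly hybridised probe sets.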

Other observations

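Outside the lists, NPY, GREM1, MPP1, PON1 and SCTR were called with Leghorn 2 included, and were chosen after their values were seen. NPY, the neuropeptide Y gene, read 3.45, 3.40, 4.76, 4.51 and 4.26 in Fayoumi and 6.23, 7.78, 7.09, 7.64 and 8.34 in Leghorn. It fell 10.1-fold without overlap (limma adjusted p = 0.0111, and 0.0331 with Leghorn 2 at 5.78), and broiler arrays 2 to 6, at 5.95 to 7.38, lay nearer to Leghorn. GREM1, a secreted inhibitor of bone morphogenetic proteins, rose 3.42-fold (9.78 ± 0.18 against 8.0 ± 0.35, adjusted p = 0.00252, and 0.0015 with Leghorn 2 at 8.02), and broiler spread from 6.57 to 10.46. MPP1, a membrane scaffold protein, rose 8.73-fold at 1 probe set (9.89 ± 0.27 against 6.76 ± 0.61, adjusted p = 0.00182, and 0.00123 with Leghorn 2 at 6.98), with broiler at Fayoumi levels (9.72 to 11.13). The other MPP1 probe set was above background, was not called and did not lie higher in Fayoumi. PON1, a lipoprotein-bound esterase, read 12.57 ± 0.24 against 10.81 ± 0.55 (3.39-fold, adjusted p = 0.0197, and 0.0275 with Leghorn 2 at 11.32), and its call was lost without Fayoumi 1 to 4 or Leghorn 5 (0.058 to 0.0703). The secretin receptor gene SCTR read 5.14 ± 0.72 in Fayoumi, 2.34 ± 0.05 in Leghorn and 2.32 on Leghorn 2 (adjusted p = 0.00513, and 0.0034 with it). Over the alternatives, the adjusted p ran from 0.00112 to 0.11 for NPY, 0.000341 to 0.281 for GREM1, 8.28e-05 to 0.135 for MPP1, 0.0011 to 0.402 for PON1 and 1.46e-05 to 0.28 for SCTR.

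Some called genes are neighbours in the RefSeq annotation, 12 pairs in all. FADS1 and FADS2 are one such pair, both higher in Fayoumi, and so are MHCY10 and MHCY4. TRMT6 and MCM8, LRP2 and ABCB11, and CRAMP1 and IFT140 were also higher together. The other 7 pairs moved in opposite directions, among them MPZL1 (higher) beside RCSD1 (lower), MHCY4 (higher) beside BG8 (lower), and ATP5O (lower) beside MRPS6 (higher). These are calls in the 10 arrays, and MPZL1, MRPS6 and CRAMP1 did not pass with Leghorn 2. MCM8 lost its call whichever of the 10 arrays was left out (limma adjusted p = 0.0554 to 0.142). ABCB11 lost its call without any of 8 arrays (0.0558 to 0.123). The pairs are described only, with no test of whether neighbours were called together more often than other genes.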
